A study of Junco hyemalis with 48 samples.

Results

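Growing dark feathers from 2 places in the junco tail were compared here, the second rectrix (R2, an inner tail feather that is dark throughout) and the dark part of the fourth rectrix (R4, an intermediate tail feather that is partly white). The samples were chosen by their labelled feather position and pigmentation. Of the 48 RNA-seq libraries in the series, 23 entered the comparison. They comprised 11 libraries of R2 and 12 of the R4 dark part, from the 6 birds that had both tissues, called A, B, C, D, F and G. All birds were dark-eyed juncos (Junco hyemalis). Per the labels, feathers were plucked on both sides of the tail and their regrowing replacements were collected at 14 days. R2 was frozen whole, whereas R4 was cut into its dark and white regions before freezing. For bird C, which has no R4 white library, the division of R4 is not stated. Colour was therefore the same in both groups, but feather position and dissection changed together and cannot be told apart. The reference groups were the dissected R4 white part, with 11 libraries from 6 birds, and the undissected white sixth rectrix (R6, the outer tail feather), with 13 libraries from 7 birds. The labels give no age, sex or treatment beyond plucking. Bird E had an R4 dark library but no R2, so its profile entered the fit but gave no paired difference.

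A regrowing feather is built from keratinocytes that divide at the base of the follicle, move outward and fill with keratin. Melanocytes in the follicle pass melanin granules to these cells while the barbs form, and a region that receives no melanin is white. A pulled feather of this age also holds living pulp with blood vessels, so each library is a mixture of cell types. In such bulk tissue, fewer cells of a type and less RNA per cell cannot be told apart. The deposited table names each gene model by the letter g and a number and pairs none of them with a gene name. The pigment tissue could therefore not be checked against melanocyte markers, and no function is given for any gene model.

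Left and right counts were summed within each bird and tissue, so that 1 bird gave 1 profile per tissue. The 23 libraries held between 14.8 and 39.9 M counts, and the median over tested gene models and profiles was 598 counts. The 20 most abundant gene models of each dark library took between 11.3% and 18.4% of its counts. Left and right libraries of the same tissue differed by more than counting noise in each of 11 pairs and were taken as separate libraries. The pairs were not alike in this. The mean chi-square per gene model was 140 in the R4 dark part of bird B and 94.9 in that of bird D, against 4.36 to 19.4 in the other pairs.

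Few gene models passed the test between dark R2 and dark R4 tissue. Of 15844 tested, 20 had a Benjamini-Hochberg adjusted p below 0.05 in edgeR's quasi-likelihood test, or 0.126%, and these are referred to as called. Of these, 13 were higher in R2 (0.082% of all tested) and 7 were lower (0.0442%). Their adjusted p-values in edgeR lay between 0.00147 and 0.0465 for the higher and between 0.0106 and 0.0457 for the lower. The median log2 fold over all gene models was -0.00. The higher gene models had a median log2 fold of 1.25, ranging from 0.63 to 1.67, and 9 of the 13 exceeded 2-fold. The lower ones had smaller folds, with a median of -0.70 and a range of -0.95 to -0.31, and 0 of the 7 reached 2-fold. These calls rest on a spread shared by all 4 tissues. A fit of R2 and the R4 dark part alone called 0 of 15214 gene models in edgeR (0%), where 856 had an unadjusted p below 0.05 and the smallest adjusted p was 0.0627. The count was also 0 in edgeR without bird D, with 689 at an unadjusted p below 0.05. It was 4 without bird A, 6 without bird B, 9 without bird E, 2 without bird F and 1 without bird G. The count was 0 in edgeR in right feathers alone (683 at an unadjusted p below 0.05) and 13 in left feathers alone, while DESeq2 called 81. Without pairing by bird edgeR called 0, and 371 gene models had an unadjusted p below 0.05.

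The called gene models were of low to moderate abundance. The higher ones averaged 0.895 to 37.1 CPM (counts scaled to library size) in R2 and 0.31 to 20.9 CPM in the R4 dark part. The lower ones averaged 1.96 to 22.4 CPM in R2 and 3.46 to 31.2 CPM in the R4 dark part. When the tested gene models were divided into 4 equal groups by mean level, the lowest group held 1 higher call, the next 8 higher and 3 lower, and the third 4 of each. The highest group, above 51.3 CPM, held 0 called gene models, although the spread of its log2 differences over birds was the lowest, with a median SD of 0.15 against 0.66 in the lowest group. The 20 most abundant gene models had log2 folds between -0.13 and 0.57, and 0 of them passed the test in edgeR. For 0 gene models was there no count in every profile of 1 tissue and at least 3 counts in every profile of the other. A single read in 1 profile fails this strict rule, so it does not show that none was switched on or off.

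The gene model g9074 had the largest positive fold among those called. In R2 it measured 27.9 CPM in bird A, 25.1 in B, 14.0 in C, 14.1 in D, 15.9 in F and 11.9 in G. In the R4 dark part of the same birds it measured 7.10, 7.69, 11.5, 2.36, 8.95 and 2.46 CPM, in the same order. Every R2 value lay above every R4 dark value, although bird C came close, with 11.5 CPM in R4 against 11.9 CPM in the R2 of bird G. R2 averaged 18.1 ± 6.66 CPM (SD, n = 6) and the R4 dark part 6.67 ± 3.63 CPM (SD, n = 6). The fitted log2 fold was 1.67 (SE 0.30, adjusted p = 0.0379 in edgeR), or 3.17-fold. Within birds the log2 difference ran from 0.28 in bird C to 2.56 in bird D, all in the same direction. Its R4 dark level was uneven between sides in bird B, at 2.57 CPM on the left and 12.7 CPM on the right, while the R2 of that bird measured 25.5 and 24.5 CPM. By extraction batch, each with 2 birds, the mean log2 difference of g9074 was 1.84, 1.42 and 1.54 in batches 1, 2 and 3.

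The gene model g9071 behaved much like g9074 in size of fold but was separated less cleanly. Its R2 values were 21.3 CPM in bird A, 23.0 in B, 18.1 in C, 20.1 in D, 14.3 in F and 17.7 in G. In the R4 dark part they were 3.54, 3.55, 16.9, 3.92, 9.93 and 5.46 CPM. Bird C stood out, since its R4 dark value of 16.9 CPM lay within the range of R2, and the groups overlapped through that bird. R2 averaged 19.1 ± 3.07 CPM (SD, n = 6) and the R4 dark part 7.22 ± 5.33 CPM (SD, n = 6). The fitted log2 fold was 1.66 (SE 0.31, adjusted p = 0.0404 in edgeR). Both sides of bird C were high in R4, with 18.2 CPM on the left and 15.6 CPM on the right. The mean log2 difference of g9071 was 2.63 in extraction batch 1, 1.22 in batch 2 and 1.11 in batch 3. Birds of the same batch also differed, with 0.09 in bird C and 2.34 in bird D of batch 2. With 2 birds per batch, differences between batches and between birds cannot be told apart.

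The gene model g18961 had the largest negative fold among those called. In R2 it measured 3.63 CPM in bird A, 4.47 in B, 4.51 in C, 5.49 in D, 3.35 in F and 3.47 in G. The R4 dark parts measured 6.33, 9.15, 7.62, 12.1, 6.63 and 7.60 CPM. All R4 dark values of these birds lay above all R2 values, with bird D the highest in both tissues. The single R4 dark library of bird E, which has no R2 for comparison, measured 3.48 CPM and fell within the R2 range. Over the 6 birds R2 averaged 4.15 ± 0.83 CPM (SD, n = 6) and the R4 dark part 8.24 ± 2.13 CPM (SD, n = 6). The fitted log2 fold was -0.95 (SE 0.15, adjusted p = 0.0106 in edgeR). Its log2 differences within birds were even, from -1.13 to -0.75 with an SD of 0.16, against an SD of 0.88 for g9074 and 1.10 for g9071. Extraction batches gave means of -0.91, -0.94 and -1.05.

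The gene model g5533 was also lower in R2, at a level of only a few CPM. Its R2 values were 2.20 CPM in bird A, 1.59 in B, 1.50 in C, 2.71 in D, 1.82 in F and 1.90 in G. Its R4 dark values were 3.32, 2.94, 2.63, 5.34, 2.44 and 4.10 CPM. Bird D was again the highest in both tissues, and its R2 value exceeded the R4 dark values of birds C and F. The groups therefore overlapped even though R2 was lower within each bird. The single R4 dark library of bird E, which has no R2 for comparison, measured 1.50 CPM, level with the lowest R2 value. R2 averaged 1.96 ± 0.45 CPM (SD, n = 6) and the R4 dark part 3.46 ± 1.09 CPM (SD, n = 6). The fitted log2 fold was -0.81 (SE 0.16, adjusted p = 0.0404 in edgeR). The left R4 dark library of bird D was high for both gene models, with 6.74 CPM of g5533 and 14.9 CPM of g18961 against 2.27 and 6.05 CPM on the right.

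The direction of these 4 gene models did not change in any alternative fit, but their calls depended on the birds included. In edgeR, g9074 was no longer called without bird A, B, D, F or G (adjusted p from 0.0615 to 0.316), and g9071 when any 1 bird other than C was left out (adjusted p from 0.0606 to 0.316). The call of g18961 was lost without bird D, F or G (adjusted p from 0.0606 to 0.139), and that of g5533 without any 1 of the 7 birds (adjusted p from 0.0619 to 0.316). With R2 and the R4 dark part fitted alone, the adjusted p in edgeR was 0.537 for g9074, 0.669 for g9071, 0.0627 for g18961 and 0.240 for g5533.

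**Figure D1:**
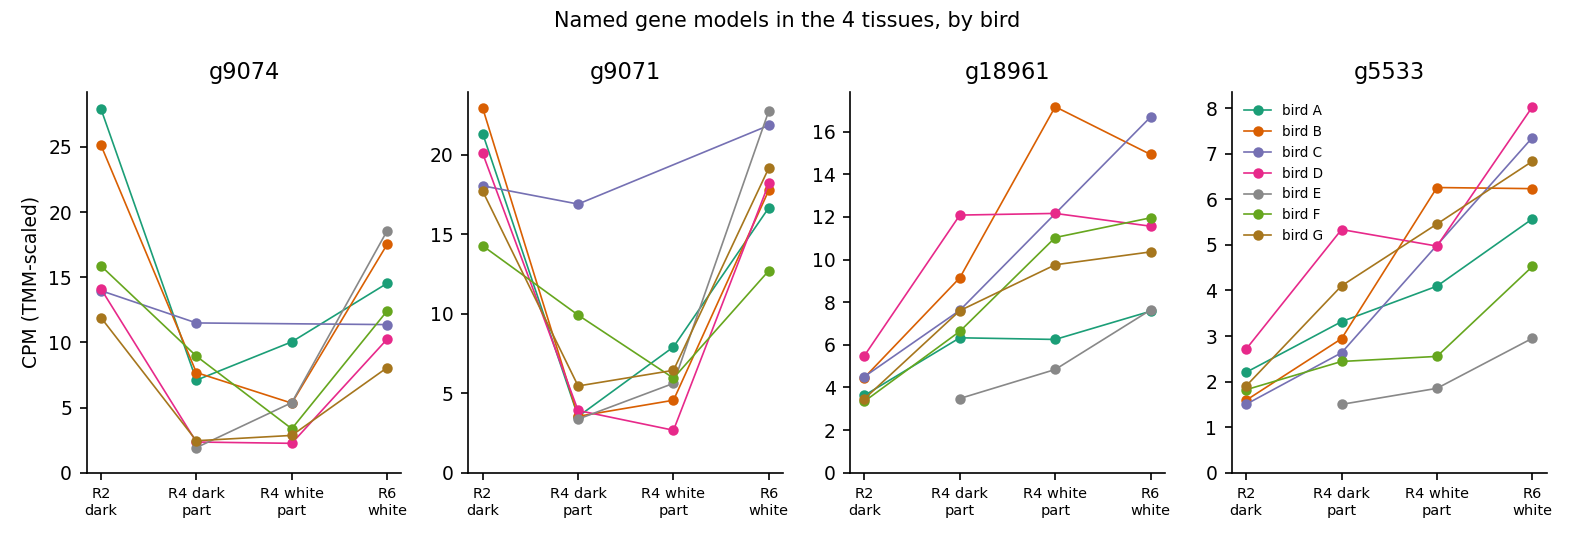
CPM (vertical axis, TMM-scaled) of g9074, g9071, g18961 and g5533 in each tissue (horizontal axis), with 1 point per bird, left and right counts summed, and lines joining the tissues of 1 bird. The panels for g9074 and g9071 show, within each bird, R2 and R6 above the R4 parts, except that R6 of bird C is just below its R4 dark part for g9074, while g18961 and g5533 have their lowest means in R2.

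Across all 20 called gene models, the birds moved in the same direction but by different amounts. Of the 13 higher gene models, 12 were higher in R2 in each of the 6 birds, and of the 7 lower ones all 7 were lower in each bird. For all gene models tested, R2 was higher in all 6 birds for 390 (2.46%) and lower in all for 373 (2.35%). The groups did not overlap for 7 of the 13 higher and 2 of the 7 lower gene models, against 16 (0.101%) and 6 (0.0379%) over all tested. These counts describe the same libraries on which the gene models were called and are no separate evidence. Taken side by side within a bird, R2 was above the R4 dark part in 137 of 143 comparisons of the higher gene models over 11 bird sides, and below it in 72 of 77 comparisons of the lower ones. These comparisons pool gene models and both sides of a bird, so they are not replicates. They use the libraries on which the gene models were called, which fixed the direction largely in advance. The same count was not made over all gene models.

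Bird C showed the smallest difference in 12 of the 13 higher gene models. Its median log2 difference over them was 0.23, compared with 1.46 in bird A, 1.42 in B, 1.23 in D, 0.82 in F and 1.51 in G. In the lower gene models bird C was not set apart, with a median of -0.47 against -0.41 in bird F and -0.87 in bird B at the ends of the range. Bird C is also the bird for which no R4 white library is among the samples, and the labels do not say how its R4 was divided. The part this plays in the small differences was not tested. Without bird C, edgeR called 25 gene models, 19 higher and 6 lower, and 18 of the 25 were among the 20 of the main fit.

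**Figure D2:**
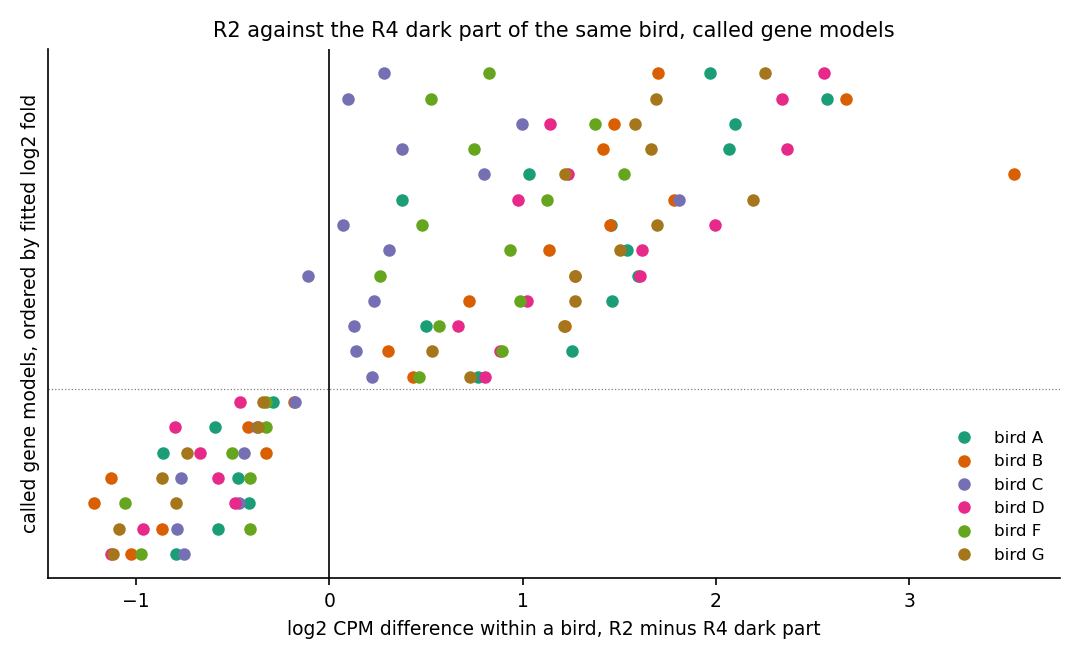
Log2 CPM difference between R2 and the R4 dark part of the same bird (horizontal axis) for the 20 called gene models, ordered from the largest fitted fold at the top to the most negative at the bottom; each point is 1 bird and the dotted line separates the 13 higher from the 7 lower. Bird C lies nearest to 0 in 12 of the 13 upper rows, with 1 value below 0, while the 7 lower rows are narrow.

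The white tissues offer the same contrast of a whole feather with a dissected part, R6 against the R4 white part, in libraries that R2 and the R4 dark part do not use. The birds, the R4 feathers that were cut into both parts and the fitted spread were shared, however, so both contrasts are not independent. Of the 13 gene models higher in R2, 11 were also above the R4 white part in R6, and 9 of these passed the test in edgeR. Over all gene models, 60 passed in that direction (0.379%) and 14 in the other (0.0884%). The 9 shared gene models were 69.2% of the 13 and 15% of the 60. Among them are g9071, g9074 and a close neighbour of g9074 by identifier number, and these may not be separate measurements. The median log2 fold of the 13 was 0.95 in white tissue, with a range of -0.19 to 1.67. The difference between the dark and the white fold was called in 0 of the 13, against 21 of 15844 gene models overall (0.133%). The count of 9 was 3 without bird D or G, 4 without bird F or without pairing by bird, and 0 in left feathers alone.

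For g9074, R6 averaged 13.2 ± 3.84 CPM (SD, n = 7) and the R4 white part 4.88 ± 2.84 CPM (SD, n = 6). Its white log2 fold was 1.51 (SE 0.31, adjusted p = 0.0291 in edgeR). For g9071, R6 averaged 18.5 ± 3.35 CPM (SD, n = 7) and the R4 white part 5.53 ± 1.78 CPM (SD, n = 6). Its white log2 fold was 1.67 (SE 0.31, adjusted p = 0.0192 in edgeR). Over 14 alternative fits these white folds stayed between 1.39 and 1.80, and the call was lost in 7 of them for g9074 and in 4 for g9071. The means of both gene models were higher in the whole inner and the whole outer feather than in either part of the intermediate feather, although single birds overlapped. The colour contrast within R4 uses the same R4 dark libraries, and in it the 13 gene models had a median log2 fold of 0.13 for dark over white, with 0 called (117 called over all gene models, 0.738%). In R2 over R6, which shares the R2 libraries, their median was 0.29 and 2 were called (200 over all, 1.26%). Those 2 were the gene models whose R6 did not exceed the R4 white part. One of them averaged 19.4 CPM in R2, 7.36 in the R4 dark part, 6.82 in the R4 white part and 6.56 in R6, and the other averaged 0.895, 0.31, 0.46 and 0.39 CPM. Each was highest in R2 among the 4 tissues, and in the first bird B had the largest difference from its R4 dark part, 3.54 on the log2 scale.

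Of the 7 gene models lower in R2, 4 had a dark fold that differed from their white fold. Their median log2 fold for R6 over the R4 white part was 0.17, from -0.16 to 0.71. None of them was called lower there, and 1 was called higher. The 4 passed the test of the difference in edgeR at an adjusted p below 0.05, and the remaining 3 did not. Over all gene models, 21 of 15844 passed it (0.133%). The 7 were called on the dark fold that this difference contains, which pushes it below 0 in advance. Their count is therefore no separate evidence. For g18961 the white log2 fold was 0.17 (SE 0.14) and the dark fold minus the white fold was -1.12 (SE 0.20, adjusted p = 0.0242 in edgeR). For g5533 the white log2 fold was 0.52 (SE 0.15) and the difference was -1.33 (SE 0.22, adjusted p = 0.0132 in edgeR). Without 1 bird, between 1 and 6 of the 7 differed, with 1 without bird A, D, E or G. It was 2 in left feathers alone, 0 in right feathers alone and 1 without pairing by bird. The difference of g18961 passed in 5 of 14 alternative fits and that of g5533 in 7 of 13. The level of g18961 rose in steps from 4.15 CPM in R2 and 8.24 CPM in the R4 dark part to 10.2 ± 4.42 CPM for R4 white (SD, n = 6) and 11.5 ± 3.43 CPM for R6 (SD, n = 7). From the R4 dark part upward, neighbouring means differed by less than the SD between birds. Means of g5533 followed the same order, with 4.20 ± 1.71 CPM for R4 white (SD, n = 6) and 5.93 ± 1.75 CPM for R6 (SD, n = 7). Of the 7 lower gene models, all 7 had a higher mean in R6 than in R2, 5 had the R4 dark mean between them, and 3 had all 4 means in the order R2, R4 dark, R4 white, R6. The 7 were called as lower in R2 than in the R4 dark part, so the place of R2 in these orders is partly fixed in advance. The same orders were not counted over all gene models. In R2 over R6, 6 of the 7 were called (200 over all gene models, 1.26%), with a median log2 fold of -1.20. In R4 dark over R4 white 2 were called (117 over all, 0.738%), with a median of -0.35. Both of these contrasts share libraries with the comparison of R2 and the R4 dark part, so their values are given only side by side.

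**Figure D3:**
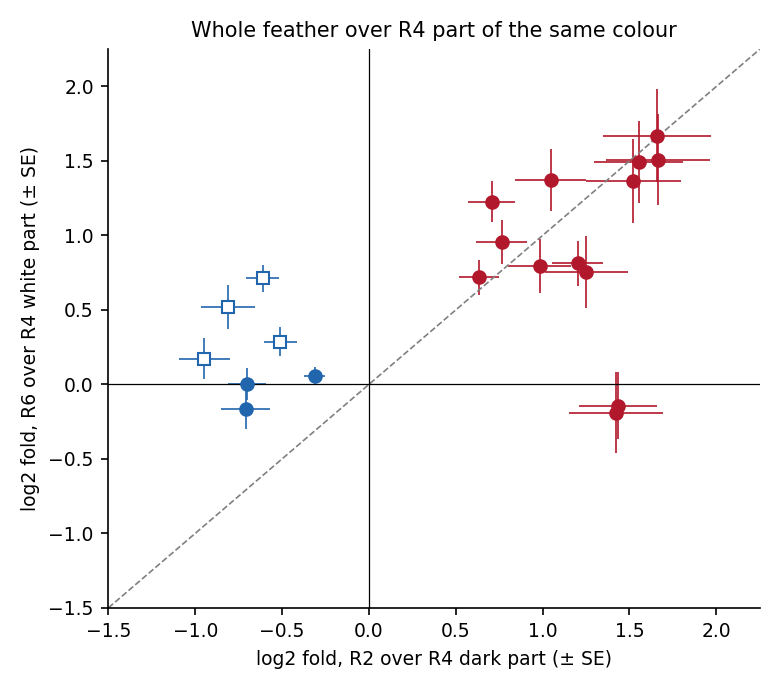
Log2 fold of R2 over the R4 dark part (horizontal axis) against that of R6 over the R4 white part (vertical axis) for the 20 called gene models, with bars of 1 SE; red marks the 13 higher and blue the 7 lower in R2, open squares those whose 2 folds differed in the test of the difference, and the dashed line marks equal folds. Of the red points, 11 lie above 0 on both axes, and 2 lie to the right near 0 on the vertical axis, while the blue points lie to the left at -0.16 to 0.71.

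The same separation was visible in single libraries. The mean log2 CPM of the 13 higher gene models lay between 3.46 and 4.01 in the 11 R2 libraries and between 1.66 and 3.18 in the 12 R4 dark libraries. It lay between 1.73 and 2.82 in the R4 white libraries and between 2.89 and 3.74 in those of R6. For the 7 lower gene models the ranges were 2.86 to 3.21 in R2, 3.28 to 4.16 in the R4 dark part, 3.34 to 4.26 in the R4 white part and 3.72 to 4.39 in R6. R2 and R4 dark libraries did not overlap on either measure, and the gene models were chosen on these same libraries. The R4 dark library of bird E, which these ranges leave out, had 1.93 for the higher and 3.22 for the lower gene models. The latter lay just above the R2 maximum of 3.21.

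Lists chosen on other libraries of these birds were then followed in the dark tissues. A fit of the white profiles alone ranked gene models by R6 against the R4 white part. The R4 white parts were cut from the same R4 feathers as R4 dark parts measured here, so the list is not independent of them. The 100 ranked highest in R6 differed between R2 and the R4 dark part by a median log2 fold of 0.24. Of these, 67 of 100 were higher in R2, against 52.0% of all gene models, and 24 of 100 were higher in all 6 birds, against 2.46%. The list medians by bird were 0.22 in A, 0.51 in B, -0.03 in C, 0.23 in D, 0.10 in F and 0.22 in G. Bird C was the lowest, but it has no R4 white library and took no part in choosing the list. The other birds measured did, so the low median of bird C cannot be read as a repeat of its small differences. Without bird B the list median was 0.14, and with 50 or 200 gene models it was 0.42 or 0.13. The 100 ranked lowest in R6 had no common direction in dark tissue, but few of them were called where they were chosen. In that fit 2 gene models passed in edgeR as lower in R6, against 20 as higher. The median log2 folds of the lists there were -0.38 and 0.85. Their median was 0.02, with 47 of 100 lower in R2, against 48.0% of all gene models.

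Gene models that differ between the dark inner and the white outer feather, in position as well as colour, were chosen in left feathers, as the 100 most clearly higher and the 100 most clearly lower in R2 than in R6. They were measured in the right feathers of the 5 birds with right libraries of both dark tissues. The list higher in dark R2 had a median log2 fold of 0.29 between right R2 and the right R4 dark part, and 88 of 100 were higher in R2, against 50.2% of all. Without bird B the list median was 0.16. By bird the medians were above 0 in each bird, at 0.17 in A, 0.88 in B, 0.16 in C, 0.08 in D and 0.18 in G. In 32 of 100 gene models R2 was higher in all 5 birds, against 3.64% of all. Both lists were chosen on the left R2 of birds whose right R2 was then measured, and both sides of a bird are alike. This pushes the list higher in R2 above 0 in advance, and the list lower in R2 below 0. The list higher in white R6 gave no common direction. Its medians were -0.37 in A, 0.83 in B, -0.21 in C, 0.34 in D and -0.21 in G, with 65 of 100 higher in R2, against 50.2% of all.

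Gene models were also ranked by R2 against the R4 dark part in left feathers and measured in right feathers. The 100 ranked higher had a median log2 fold of 0.61 on the left, where they were chosen, and 0.09 on the right. Of these, 59 of 100 were still higher, against 50.15% of all gene models. Birds differed widely, with medians of 0.49 in A and 0.45 in G but -0.45 in B and -0.29 in D. The median on the right was 0.17 with 50 gene models and 0.0053 with 200. It was 0.19 without bird B, 0.18 without bird D and -0.02 without bird A or bird G. The 100 ranked lower had a median of -0.44 on the left and -0.12 on the right, with 71 of 100 still lower, against 49.85% of all. All 5 birds were below 0 for this list, from -0.15 to -0.10. Whether the higher and the lower lists differed in size was not tested.

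**Figure D4:**
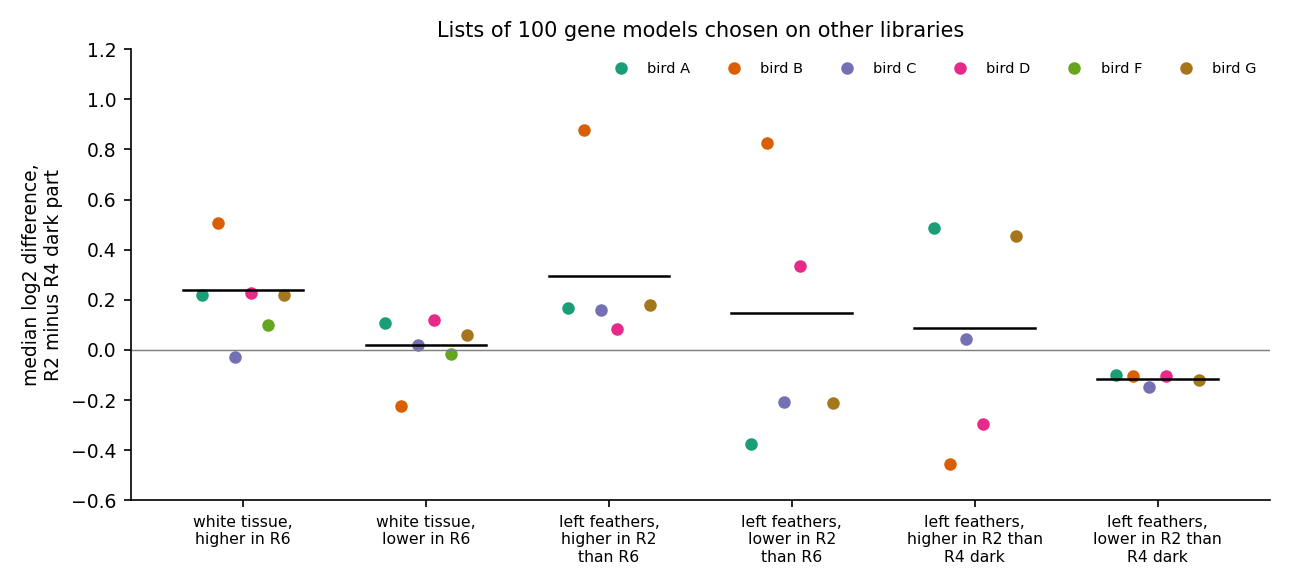
Median log2 CPM difference between R2 and the R4 dark part (vertical axis) over 6 lists of 100 gene models chosen on other libraries (horizontal axis); each point is 1 bird and the black line is the list's median log2 fold from the mean over birds, with bird F absent from the 4 lists measured in right feathers. The list higher in dark left feathers is above 0 in all 5 birds, with bird B at 0.88, and the last list is below 0 in all 5, while the remaining lists hold birds on both sides of 0.

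The distance between R2 and the R4 dark part averaged 0.24, against 0.17 between left and right R2 and 0.23 between left and right R4 dark parts. Distance was taken as the median over gene models of the absolute log2 CPM difference between libraries. Left and right R2 were 0.14 apart in bird A, 0.15 in B, 0.16 in C, 0.12 in D and 0.26 in G. Left and right R4 dark parts were 0.15, 0.41, 0.13, 0.28 and 0.19 apart in the same birds. Between R2 and the R4 dark part, averaged over both sides, the distances were 0.18, 0.39, 0.14, 0.23 and 0.24. The distance between feathers exceeded the distance between sides by 0.037 ± 0.044 (SD, n = 5). It did so in 4 of 5 birds, and the exact permutation test by sign flips (two-sided) gave p = 0.125, where 0.0625 is the smallest possible. The 2 sides were farther apart in the R4 dark part than in R2 by 0.063 ± 0.137 (SD, n = 5), a direction seen in 3 of 5 birds (the same exact permutation test, p = 0.4375). Neither difference exceeded the spread between birds. Bird B raised both, and without it they were 0.019 and 0.015.

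Bird B had the greatest distance between the dark tissues. In its summed profiles 2136 gene models were more than 2-fold higher in R2 and 317 more than 2-fold lower, together 15.5% of those tested. In the other birds between 147 and 340 were higher and between 211 and 653 lower, or 2.26% to 5.52%. The 2136 gene models of bird B had a median level of 2.74 CPM, and 1242 of them (58.2%) were over 2-fold higher in R2 on both sides. In the other birds their median log2 difference was -0.06, and 99 (4.64%) were higher in R2 in all of them. Over these gene models, the R4 dark part of bird B was below the mean of the other birds' R4 dark parts by a median log2 difference of -1.52, while its R2 differed from theirs by 0.22, its R4 white part by 0.57 and its R6 by 0.14. These gene models were chosen on the R2 and R4 dark libraries of bird B, from which the count on both sides also comes. A departure in R2 or in the R4 dark part was therefore fixed in advance. It was larger in the R4 dark libraries of that bird. Fewer gene models reached 1 CPM there, 12608 against 12947 to 13154 in the R4 dark parts of the other birds. When the R4 dark profile of this bird was left out, edgeR called 15 gene models, 7 higher and 8 lower. Of these, 12 were among the 20 of the main fit. A fit of R2 and the R4 dark part alone without bird B called 60, 37 higher and 23 lower, and only 10 of them were among the 20. The 60 included g18961 and g5533 but not g9074 and g9071.

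Over all tested gene models, the differences between R2 and the R4 dark part correlated only weakly between birds. Across the 15844 gene models, the log2 differences of any pair of birds correlated with r between -0.18 and 0.31, with a median of 0.054 over 15 pairs. Pairs with bird B lay between -0.18 and 0.036, and the other pairs between -0.0014 and 0.31. Of 53 gene models with a fitted log2 fold above 1, 9 were called, and of 27 below -1, 0 were called. Most were of low level, with medians of 0.61 and 0.32 CPM, and 25 and 4 of them averaged at least 1 CPM in either tissue. The direction was the same in all 6 birds for 29 of the 53 and 10 of the 27, against 2.46% and 2.35% of all tested, but they were picked by fold in these same libraries. The 20 most abundant gene models of each profile, which need not be the same in every profile, took a larger share of counts in R2 by 1.08 ± 1.39 percentage points (SD, n = 6). That direction was seen in 5 of 6 birds, with p = 0.125 in the exact permutation test, where 6 birds allow no p below 0.031. The exception was bird B, with -0.91 points, and the largest differences were 2.65 points in bird A and 2.69 in bird G.

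**Figure D5:**
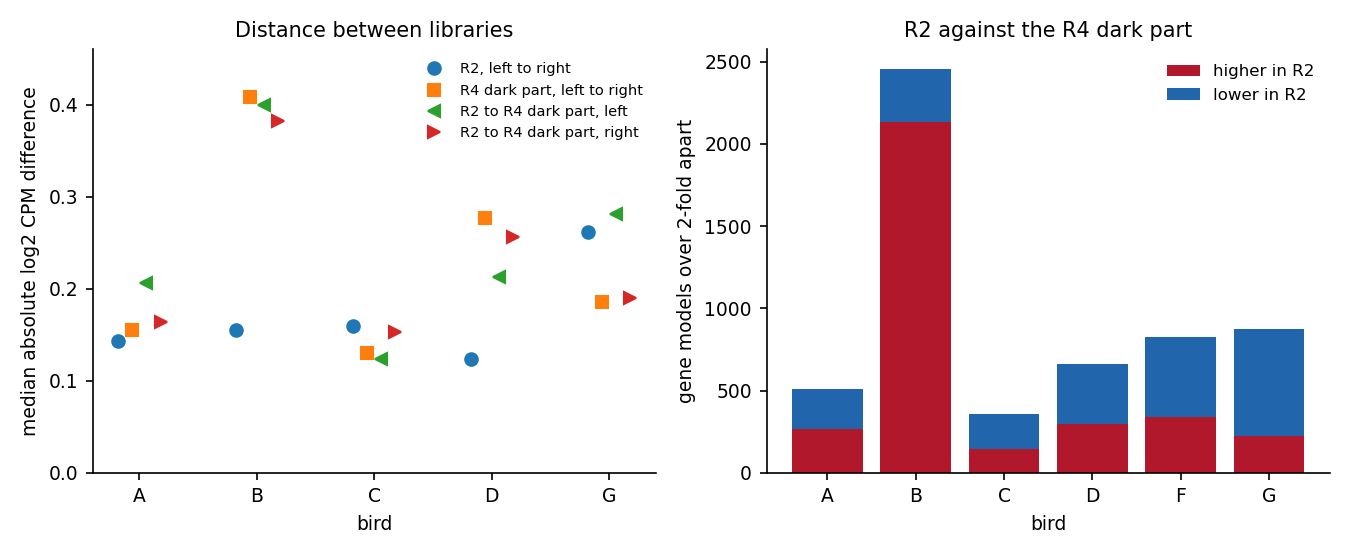
Left panel, distance between libraries (median absolute log2 CPM difference, vertical axis) by bird for left against right feathers and for R2 against the R4 dark part, in the 5 birds with both sides of both tissues. Right panel, number of gene models more than 2-fold apart between R2 and the R4 dark part (vertical axis) by bird, stacked by direction. Bird B has the largest distances, 0.38 to 0.41 wherever its R4 dark part is involved, and 2136 gene models more than 2-fold higher in R2.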

How the data were processed

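Per the labels' protocols, the mRNA libraries were stranded and read for 75 bp. The tools in the submitters' processing notes are STAR 2.7.2b, Trimmomatic 0.33, bcl2fastq, Subread 1.6.0 and featureCounts. Genome, annotation, tool settings and strand setting are not given in the sources used. The authors deposited raw counts per gene model, 1 column per library, with no normalization. Overlapping or near-identical gene models could not be recognised, and their values are uncertain.

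Left and right counts were summed per bird and tissue, since they come from 1 animal, giving 26 profiles of 7 birds. The series text gives 7 birds and the growth protocol 6, and the 7 animal identifiers were used. The main test was edgeR 4.0.16 in R 4.3.3 (quasi-likelihood F test, robust dispersion, TMM, default expression filter, 15844 of 20808 gene models) with group and bird in the model and all 4 groups in 1 fit. Folds are R2 over the R4 dark part. CPM used TMM-scaled library sizes, and log2 CPM a prior count of 2. SE is the absolute fold over the root of F. Pairing came from the same animal. Deviations from group means correlated across genes with r between 0.183 and 0.658 (median 0.558) in the same bird. The median between birds was -0.108, a value pushed below 0 by taking deviations from means over the same birds. RNA was extracted in 3 batches, and both dark tissues of each bird shared 1 batch, so the bird term also removes batch differences between them. The R4 white library of bird E was extracted in batch 3 and its other libraries in batch 2, so in the white contrast batch is not removed for that bird.

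The gene models named are, among those called with the same sign in all 6 birds and a mean of at least 1 CPM in either tissue, the 2 with the largest positive and the 2 with the largest negative fold. The comparison, lists and tests were chosen with earlier results of these data known. Alternatives were RLE factors, DESeq2 1.42.0, other filters, no bird term, the 2 groups alone, limma 3.58.1 voom with sample weights, 1 side only, each bird left out, and other list sizes. The fit of the 2 groups alone without bird B, and the alternatives for white folds and for differences between dark and white folds, were added after seeing the data. The edgeR script was tested on simulated data. Plots were drawn with matplotlib 3.10.9.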

Additional observations from a re-analysis of the deposited data

Results flagged for a closer look

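Bird B stood apart in 3 measures of R2 against the R4 dark part. Its median absolute log2 difference between the tissues was 0.306, with the next bird, D, at 0.173. The share of gene models more than 2-fold apart was 15.5% in bird B, with the next bird, G, at 5.52%. In the right feathers, the list chosen as higher in dark left feathers had a median log2 difference of 0.879 in bird B, with the next bird, G, at 0.181. Bird G stood apart in the distance between its left and right R2, at 0.261, with the next bird, C, at 0.160. Across 26 sets of values examined, 4 had such a bird, and chance alone would give 1.3 if the sets were independent, which they were not. Among gene models, the dark fold differed from the white fold for 4 of the 7 lower ones by edgeR's test of the difference. The difference was -1.33 for g5533 and -1.12 for g18961 on the log2 scale. The 7 were called on the dark fold that the difference contains, so these differences are no separate evidence.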

How the results depend on the processing

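Against the 20 called gene models (13 higher, 7 lower), DESeq2 called 81 (54 and 27), no filter on low counts 9 (4 and 5), limma voom with sample weights on the 2 groups alone 38 (21 and 17), left feathers 13 (11 and 2), the fit leaving out bird B's R4 dark profile 15 (7 and 8), and the 2 groups alone without bird B 60 (37 and 23). The fit without the replicate block, that is without pairing by bird, called 0 in edgeR (371 at an unadjusted p below 0.05), as did right feathers alone and the 2 groups alone. Leaving out 1 bird gave 0 to 25 calls, 0 to 19 higher and 0 to 6 lower. RLE factors gave 20 and a minimum mean of 5 CPM 19. Larger counts were not always the same gene models. Of the 20 main calls, DESeq2 shared 20, no filter 9, limma voom 10 and left feathers 6. The fit leaving out bird B's R4 dark profile shared 12, and the 2 groups alone without bird B 10. The 20 kept their sign in every alternative in which they were tested. The log2 fold of g9074 ranged from 1.16 to 2.00 and lost its call in 12 of 18 alternatives, g9071 from 0.98 to 2.00 in 14 of 18, g18961 from -1.08 to -0.75 in 7 of 18, and g5533 from -0.93 to -0.68 in 12 of 17. The dark fold minus the white fold ranged from -1.30 to -0.84 for g18961 and from -1.54 to -1.17 for g5533. The cause was not tested. The differences in distance and in share of counts kept their direction in all 8 alternatives each. For the distances the number of birds allows no p below the threshold, so their p-values say nothing about stability.

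The median of the white-tissue higher list was 0.42 with 50 gene models, 0.13 with 200 and 0.14 to 0.27 with 1 bird left out, lowest without bird B, as for the left-feather dark list at 0.16 to 0.33. That of the white-tissue lower list was -0.0058 with 200 gene models and -0.0054 from a minimum mean of 5 CPM, and -0.0055 to 0.042 with 1 bird left out. The left-feather white list gave -0.063 to 0.23 with 1 bird left out, the negative value without bird B, and the gene models ranked higher in left feathers -0.020 to 0.19, negative without bird A or G. Those ranked lower gave -0.18 with 50 gene models, -0.077 with 200 and from 5 CPM, and -0.14 to -0.084 with 1 bird left out. Having 6 pairs of profiles and a spread borrowed from the other tissues limits what can be called. The least abundant called gene model, below 1 CPM, rests on as few as 7 counts in a profile.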

Other observations

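Of the 13 gene models higher in R2, 3 carry identifier numbers at most 5 apart, namely g9071, g9074 and the one numbered 1 above g9074, which had a log2 fold of 1.52 (adjusted p = 0.0379 in edgeR). Their log2 CPM correlated with r between 0.81 and 0.89 over the 12 profiles of both dark tissues. Of the 2 identifiers between g9071 and g9074, 1 had a log2 fold of 1.34 (adjusted p = 0.0850 in edgeR) and the other -0.20. Whether identifier numbers follow genome position is not given in the sources used here, and reads shared between copies could not be checked, so the 3 may not be separate measurements.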
